A study of Mus musculus with 8 samples.

Results

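The SGK kinases, encoded in the mouse by Sgk1, Sgk2 and Sgk3, were followed in RNA of tissue that the labels call cervical spinal cord. The members were the 3 genes with the family name, and the array held 1 probe set for each that the platform annotation gave to that symbol alone, with 0 further probe sets shared with another symbol. They were probe sets 10362073 (Sgk1), 10478326 (Sgk2) and 10344750 (Sgk3). All 3 passed the filter on dim probe sets, among 16026 genes tested. The family was picked with earlier values of Sgk1 and Sgk3 in these same arrays in view, so the levels and differences of Sgk1 and Sgk3 are a description and carry no test, and only Sgk2 and genes around the family were tested.

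The serum and glucocorticoid regulated kinases are serine/threonine kinases of the AGC class, close relatives of AKT. PI3-kinase signalling switches them on through phosphorylation by PDK1 and by the mTORC2 complex, and they act on ubiquitin ligases, ion channels, transporters and FOXO transcription factors. Sgk1 is the member whose own transcription is induced by glucocorticoids, mineralocorticoids, osmotic change and stress, and in the central nervous system it is expressed in neurons and in oligodendrocytes. Sgk3 carries a PX domain that holds it at endosomes through phosphatidylinositol 3-phosphate, and Sgk2, the member least studied, is known mainly from liver, pancreas and kidney.

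All groups were male C57BL/6 mice, 6 weeks old, and each group had 2 arrays, 8 in all. The acupoint group received MPTP, a neurotoxin of dopaminergic neurons used to model parkinsonism, over 4 weeks in doses of 20 mg/kg given 24 h apart. Its mice were needled on both sides at the acupoints GB34 (3 mm deep) and LR3 (1 mm deep), on the leg and foot. There were 14 sessions 48 h apart, each 2 h after MPTP. The non-acupoint group received the same MPTP and was needled 3 mm deep at both hips on the same schedule. The MPTP group received the toxin without needling, and the control group received saline without needling. The labels describe holding mice still by hand for needling and say nothing of this for the MPTP and control groups. They number a mouse per array without saying whether RNA was pooled, so errors and p-values cover the spread between the arrays of a group, and part of that spread may be technical.

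The values are log2 signals after RMA, a background correction, normalization and probe set summary made by the authors, and 1 unit is a doubling within a probe set. Over the 16026 genes the arrays correlated at 0.975 to 0.996 across genes. Mean log2 signals were 10.46 to 11.02 for 8 neuronal markers and 10.65 to 11.01 for 7 of 8 oligodendrocyte markers, as in nervous tissue. Both were lowest on the control arrays. Neuronal markers were at 10.50 and 10.46 there and at 10.89 to 11.02 in the MPTP-treated groups. Oligodendrocyte markers were at 10.65 and 10.74 on the control arrays and at 10.75 to 11.01 in the MPTP-treated groups. Astrocyte markers were at 10.07 and 9.98 on the control arrays and at 10.49 to 10.64 in the MPTP-treated groups. Skeletal muscle markers (15 of 15 measured) had mean log2 signals of 6.99 and 5.63 on the acupoint arrays, 5.56 and 5.94 on the non-acupoint arrays, 5.86 and 5.80 on the MPTP arrays and 7.48 and 8.94 on the control arrays. Muscle transcripts were thus high on both control arrays and on acupoint replicate 1. Meningeal markers (8 of 8 measured) were at 8.59 and 6.82 on the acupoint arrays, 7.17 and 7.61 on the non-acupoint arrays, 6.96 and 7.93 on the MPTP arrays and 8.47 and 7.14 on the control arrays. In the same order of groups, peripheral nerve markers were at 8.62 and 6.95, 7.11 and 7.26, 7.17 and 7.79, and 8.46 and 6.92, high on the replicate 1 arrays of the acupoint and control groups. Erythroid markers (4 of 6 measured) were at 6.89 and 7.29 on the acupoint arrays, 7.86 and 7.51 on the non-acupoint arrays, 7.62 and 7.60 on the MPTP arrays and 6.87 and 6.94 on the control arrays, and endothelial markers ranged from 8.16 to 8.60. Adipose markers, a list of 10 with 7 measured that was added after the data were seen, were at 7.95 on non-acupoint replicate 2 and at 5.33 to 5.79 on the other 7 arrays, so that array stood apart in fat transcripts. With 2 arrays a group the precision is limited, and in whole tissue a change in the number of cells of a type and a change in RNA per cell cannot be told apart.

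One sequence is shown because Sgk1 is named in part for its regulation by glucocorticoid, and the sequence holds letters that match a glucocorticoid receptor motif. RefSeq promoter windows (assembly GRCm38.p6, 300 bases each, 250 before and 50 after a start site) were searched for the palindrome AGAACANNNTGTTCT, which reads the same on both strands, and the motif was chosen after the sequences had been read. Sgk1 had 6 windows on chromosome 10, and 1 of them held the palindrome. Of all 32851 windows 3 held it, or 0.00913%. No window of the glucocorticoid-induced genes listed further down held it, and Zbtb16 among them had no window. There were no windows for Sgk2 or Sgk3, so the members cannot be compared in this. The half-site AGAACA, on either strand, was in 3 of the 6 Sgk1 windows and in 19% of all windows, and it is part of the palindrome. The 250 bases before that start site lie at chr10:21993640-21993889 on the plus strand, and the capitals mark the palindrome at 21993701 to 21993715, which ends 174 bases before the start site.
Sgk1 promoter: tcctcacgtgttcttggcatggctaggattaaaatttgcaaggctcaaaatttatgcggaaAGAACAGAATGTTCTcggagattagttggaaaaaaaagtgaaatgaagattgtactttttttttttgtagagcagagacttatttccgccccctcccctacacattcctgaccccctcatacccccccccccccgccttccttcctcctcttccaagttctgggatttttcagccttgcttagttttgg
A match is a description of these letters, and binding was not measured. The single Sgk1 probe set does not say which of the start sites was in use.

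Sgk1 was highest in MPTP mice that had not been needled, and the other groups overlapped. Its log2 signal was 8.06 and 8.22 on the acupoint arrays, 8.09 and 8.27 on the non-acupoint arrays, 8.78 and 8.65 on the MPTP arrays and 8.29 and 8.15 on the control arrays. Both MPTP arrays lay above all 6 others, which ranged over the same values in the acupoint, non-acupoint and control groups. Over all genes tested, both MPTP arrays lay above the other 6 for 2.87%.

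The MPTP group averaged 8.72 ± 0.0923 and the control group 8.22 ± 0.101 (SD, n = 2 each), a log2 difference of 0.50 (SE 0.10), or 1.42-fold. The lower MPTP array stood 0.36 above the higher control array. MPTP arrays lay above control arrays without overlap for 41.9% of all genes, so for Sgk1 a lack of overlap is a common pattern in this comparison. The median gene differed by 0.061, which leaves 0.44 for Sgk1 relative to it. With the mean muscle marker signal as a covariate, an alternative added after seeing the data, the Sgk1 difference was 0.30 (SE 0.18). Muscle signal was higher on both control arrays than on both MPTP arrays, so that fit cannot fully separate it from the group. Neuronal, oligodendrocyte and astrocyte marker signals were lower on both control arrays than on both MPTP arrays. The part of these cell types in the Sgk1 difference was not tested.

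Both needled groups were lower than MPTP alone in Sgk1 by about the same amount. The acupoint group averaged 8.14 ± 0.113, a difference of -0.58 (SE 0.10) from MPTP, and the non-acupoint group averaged 8.18 ± 0.128, a difference of -0.54 (SE 0.10), against 8.72 ± 0.0923 in the MPTP group (SD, n = 2 each). In linear terms these are 1.49-fold and 1.45-fold lower after needling at the acupoints and at the hips. The gaps between the nearest arrays were 0.43 and 0.38. Arrays were lower without overlap for 11.9% of all genes in acupoint against MPTP and for 19.2% in non-acupoint against MPTP. These comparisons and the one with saline share the 2 MPTP arrays, so a high value on those arrays enters each of them. With the muscle covariate the differences were -0.54 and -0.55, close to those without it.

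Between the 2 needling sites the Sgk1 difference was -0.04 (SE 0.10), smaller than the spread within either group. Against control, Sgk1 was at -0.08 (SE 0.10) in the acupoint group and -0.04 (SE 0.10) in the non-acupoint group, and the arrays overlapped in both.

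**Figure D1:**
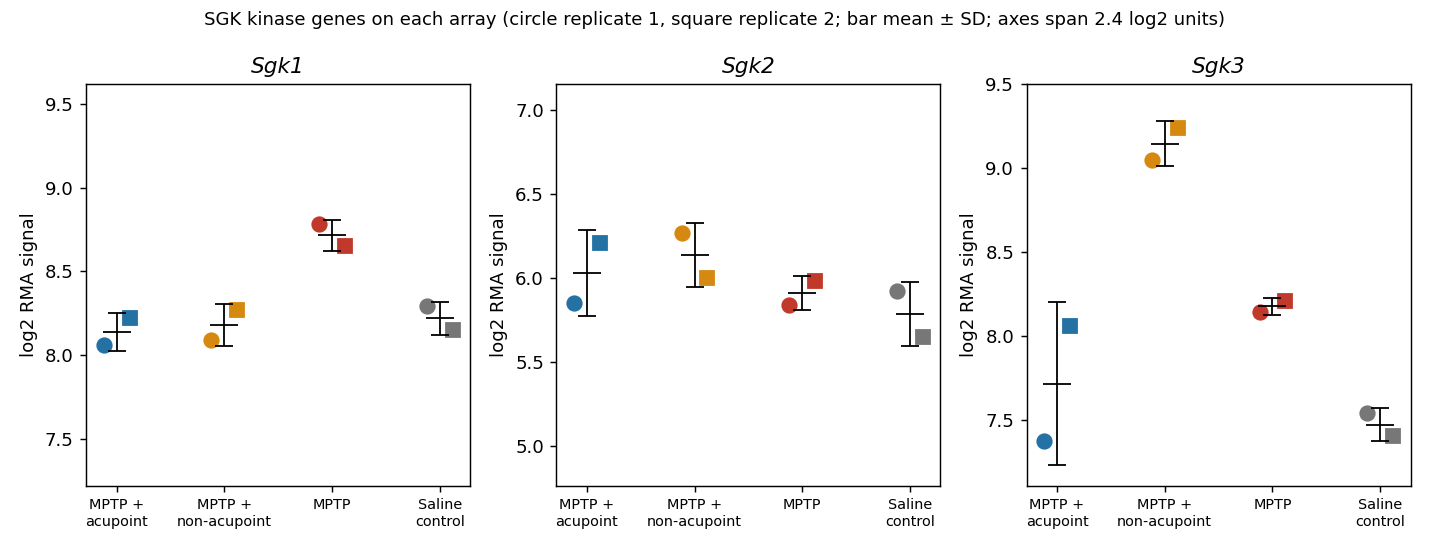
log2 RMA signal of Sgk1, Sgk2 and Sgk3 on each of the 8 arrays, by group (circles, replicate 1; squares, replicate 2; bars, mean ± SD of 2 arrays; every axis spans the same number of log2 units). Both MPTP arrays are the highest for Sgk1 (8.78 and 8.65), both non-acupoint arrays are the highest for Sgk3 (9.05 and 9.24), and for Sgk2 the non-acupoint arrays (6.27 and 6.00) lie just above the MPTP and control arrays, while the other groups overlap.

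Sgk3 had a different order of groups, with the highest signal after hip needling. Its log2 signal was 7.37 and 8.06 on the acupoint arrays, 9.05 and 9.24 on the non-acupoint arrays, 8.14 and 8.21 on the MPTP arrays and 7.54 and 7.40 on the control arrays. Both non-acupoint arrays lay above all 6 others, as they did for 5.44% of all genes. The acupoint arrays lay far apart, with replicate 1 the lowest of all 8 arrays, just below the control arrays, and replicate 2 just below the MPTP arrays.

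In the non-acupoint group Sgk3 averaged 9.14 ± 0.137, against 8.18 ± 0.0477 in the MPTP group (SD, n = 2 each). That is 1.95-fold higher, with a log2 difference of 0.97 (SE 0.19). Each Sgk3 SE pools the spread of all groups, which was unequal, with an SD of 0.489 in the acupoint group. Fitting only the 2 groups compared gave an SE of 0.08 here and of 0.22 in acupoint minus MPTP. The nearest arrays were 0.83 apart, and 17.1% of all genes were higher without overlap in this comparison. Without non-acupoint replicate 2, the array with the high adipose signal, the difference was 0.87. Against control the non-acupoint group was 3.19-fold higher, by 1.67 (SE 0.19), with 40.2% of all genes higher without overlap.

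The acupoint group averaged 7.71 ± 0.489, and its difference from the non-acupoint group was -1.43 (SE 0.19), with 13.1% of all genes lower without overlap. Every array of the acupoint group was below every non-acupoint array, by at least 0.99. Acupoint replicate 1 set much of the size: the difference was -1.08 without it and -1.78 without acupoint replicate 2. Against MPTP alone the acupoint group was at -0.46 (SE 0.19), which became -0.12 without acupoint replicate 1 and -0.81 without replicate 2. The nearest arrays were only 0.08 apart, with 11.9% of all genes lower without overlap.

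MPTP without needling was above control in Sgk3 by 0.71 (SE 0.19), 1.63-fold, with means of 8.18 ± 0.0477 and 7.47 ± 0.0966 (SD, n = 2 each). The difference relative to the median gene was 0.65. The 3 arrays with the lowest Sgk3, acupoint replicate 1 and both control arrays, were the 3 arrays with the highest muscle signal and the lowest erythroid signal. With the muscle covariate the MPTP minus control difference of Sgk3 was 0.09 (SE 0.29), while non-acupoint minus MPTP was 0.95 (SE 0.15) and acupoint minus non-acupoint -1.29 (SE 0.16). Both control arrays were higher in muscle signal than both MPTP arrays. In MPTP minus control this fit therefore cannot fully separate the covariate from the group. The part of muscle tissue in the Sgk3 values was not tested beyond this fit. That of blood, neurons, oligodendrocytes and astrocytes was not tested.

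**Figure D2:**
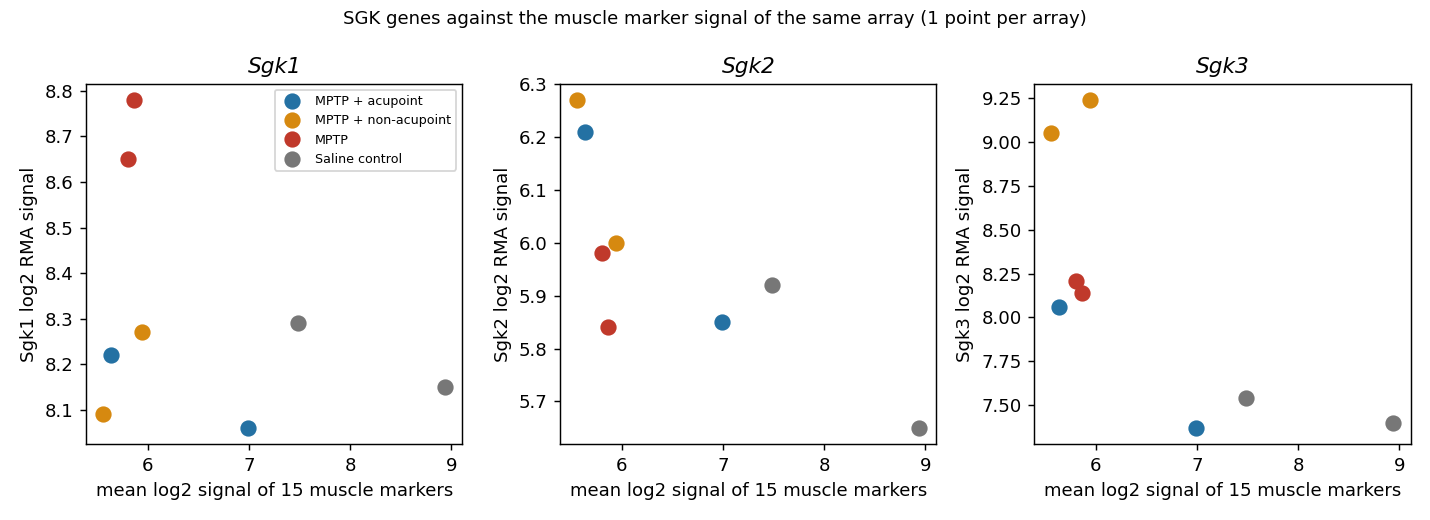
log2 RMA signal of each SGK gene (vertical axis) against the mean log2 signal of 15 muscle markers on the same array (horizontal axis), 1 point per array, coloured by group. The control arrays (7.48 and 8.94) and acupoint replicate 1 (6.99) lie to the right and are the 3 lowest for Sgk3, while for Sgk1 the MPTP arrays stand above arrays of like muscle signal.

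Sgk2 passed the test in none of the 4 comparisons tested. Its log2 signal was 5.85 and 6.21 on the acupoint arrays, 6.27 and 6.00 on the non-acupoint arrays, 5.84 and 5.98 on the MPTP arrays and 5.92 and 5.65 on the control arrays. MPTP minus control was 0.12 (SE 0.17, limma adjusted p = 0.688) and acupoint minus MPTP 0.12 (SE 0.17, limma adjusted p = 1). Non-acupoint minus MPTP was 0.23 (SE 0.17, limma adjusted p = 1), although the arrays of these groups were just separate, by 0.02. The non-acupoint arrays were also separate from the control arrays, by 0.08. Over all genes, arrays were higher without overlap for 17.1% in non-acupoint against MPTP and for 40.2% in non-acupoint against control. Acupoint minus non-acupoint was -0.11 (SE 0.17, limma adjusted p = 0.947). The 95% intervals ran from -0.26 to 0.49, -0.25 to 0.50, -0.14 to 0.61 and -0.48 to 0.27 in the same order of comparisons. Every interval held differences in either direction, and whether Sgk2 differs from Sgk1 or Sgk3 was not tested.

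**Figure D3:**
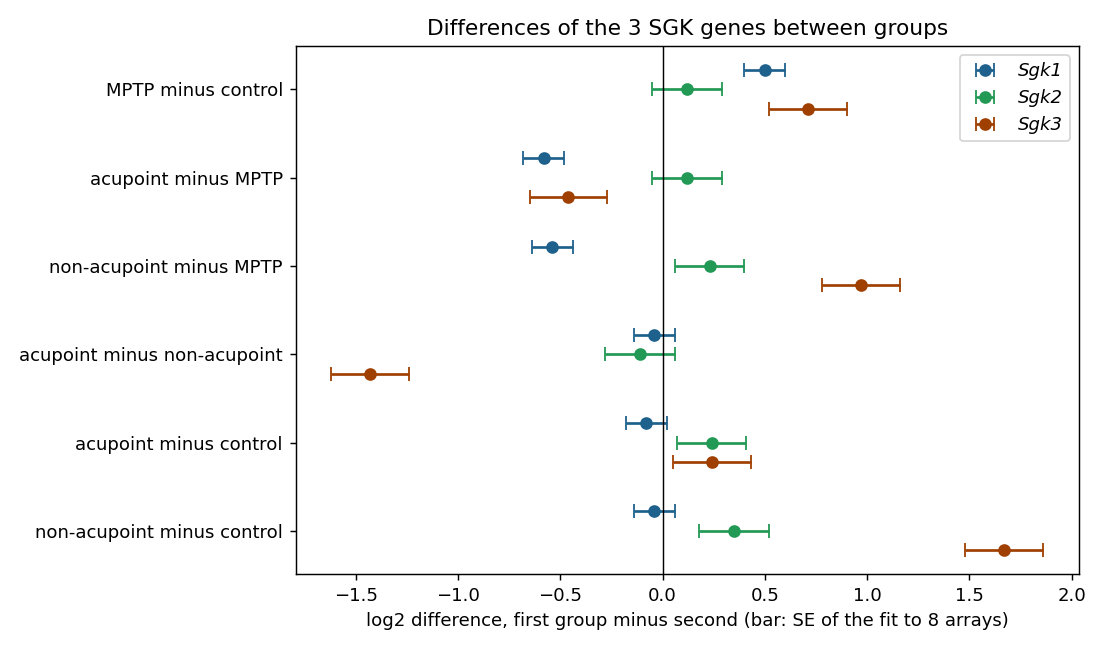
log2 differences (horizontal axis) of Sgk1, Sgk2 and Sgk3 in each of the 6 pairs of groups, first group minus second, with the SE of the fit to 8 arrays as bars. Sgk1 and Sgk3 lie on opposite sides of 0 for non-acupoint minus MPTP (-0.54 and 0.97), and comparisons that share a group are not independent.

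For each member the 5 genes with the most similar profile were taken by Pearson correlation over the 8 arrays, among genes whose range was at least 50 percent of the member's. These arrays fall into 4 groups of 2, so the correlations describe likeness and carry no test. For Sgk3, with 759 genes eligible, they were Ucp3 (r = 0.984), Fkbp5 (0.929), Cdo1 (0.916), the pseudogene Anp32-ps (0.911) and Plin4 (0.906). Ucp3 encodes a mitochondrial carrier of muscle and fat, Fkbp5 a co-chaperone of the glucocorticoid receptor, Cdo1 the enzyme that opens cysteine breakdown, and Plin4 a lipid droplet coat protein.

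Ucp3 had a log2 signal of 6.27 and 6.72 on the acupoint arrays, 7.07 and 7.29 on the non-acupoint arrays, 6.69 and 6.66 on the MPTP arrays and 6.23 and 6.19 on the control arrays. Fkbp5 was at 7.57 and 8.02 on the acupoint arrays, 8.35 and 8.66 on the non-acupoint arrays, 8.02 and 7.96 on the MPTP arrays and 7.20 and 7.10 on the control arrays. As for Sgk3, the non-acupoint arrays were the highest for both genes and acupoint replicate 1 was below replicate 2. Picking the genes by correlation with Sgk3 favours such a pattern. Without non-acupoint replicate 2, which was high in adipose markers, non-acupoint minus MPTP was 0.11 for Cdo1 (0.38 with it), 0.31 for Plin4 (0.53), 0.36 for Fkbp5 (0.51), 0.40 for Ucp3 (0.51) and 0.65 for Anp32-ps (0.53). The part of fat tissue in these values was not tested. Fkbp5 was at 0.84 (SE 0.15) in MPTP minus control and at -0.71 (SE 0.15) in acupoint minus non-acupoint. These values carry no test here, since Fkbp5 was picked by its likeness to Sgk3.

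The profile of Sgk1 had looser neighbours, with 10143 genes eligible. They were the kinase gene Stk33 (r = 0.861), the retinol dehydrogenase gene Rdh12 (0.832), Sltm (0.829), Ifitm6 (0.825) and the myosin light chain gene Myl4 (0.822). None of them is on the glucocorticoid list given below, while Fkbp5 and Plin4, near Sgk3, are. The neighbours of Sgk1 and Sgk3 came from unlike pools, of 10143 and 759 genes, and that list was written with earlier results of these data known. Whether Sgk1 and Sgk3 differ in this was not tested. Stk33 was at 4.43 and 4.58 on the acupoint arrays, 4.58 and 4.45 on the non-acupoint arrays, 4.80 and 4.84 on the MPTP arrays and 4.46 and 4.40 on the control arrays. For Sgk2, with 11533 genes eligible, they were Akip1 (0.972), the homeobox gene Hoxb9 (0.962), the deubiquitinase gene Usp38 (0.957), Tmem251 (0.956) and Hnrnpc (0.947), an RNA-binding protein gene, each lowest on control replicate 2, as Sgk2 was.

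**Figure D4:**
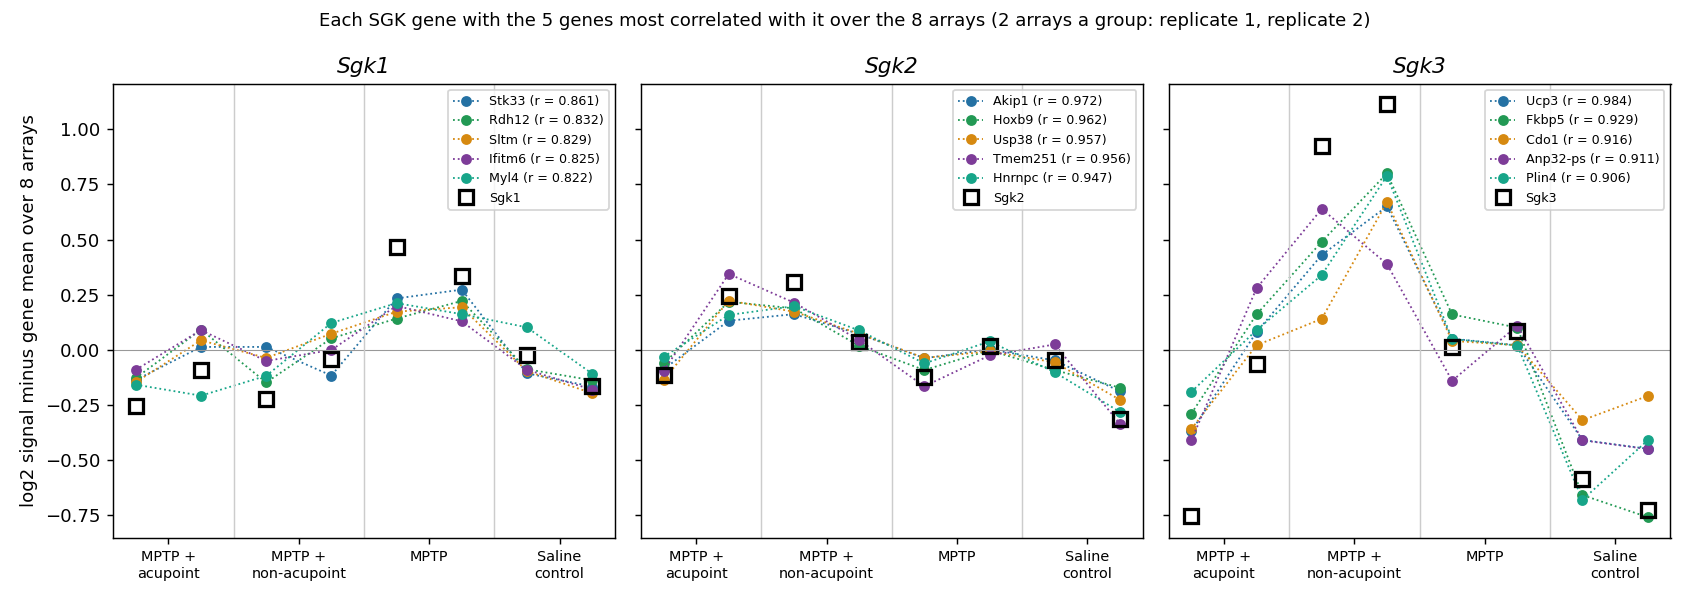
log2 signal minus the gene's mean over the 8 arrays (vertical axis) for each SGK gene (open squares) and its 5 most correlated genes (points joined by dotted lines to guide the eye), with 2 arrays a group. The Sgk3 neighbours Ucp3, Fkbp5, Cdo1, Anp32-ps and Plin4 have their highest values in the non-acupoint group, as picking them by correlation with Sgk3 favours.

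Transcripts that glucocorticoids are known to induce in many tissues were set beside Sgk1, from a list of 10 of which 9 were measured. In MPTP against control 4 rose, namely Fkbp5 (0.84, SE 0.15, limma adjusted p = 0.00824), Plin4 (0.58, SE 0.17, limma adjusted p = 0.0491), the metallothionein gene Mt2 (0.43, SE 0.11, limma adjusted p = 0.0308) and the transcription factor gene Klf9 (0.28, SE 0.08, limma adjusted p = 0.0439). That is 44.4% of the list with a median log2 difference of 0.255, against 16.8% of all genes and a median of 0.061. The list was written with earlier results of these data known, and Fkbp5 and Plin4 were also picked above by likeness to Sgk3. The p-values and shares of this list are therefore a description and no test of it. After cyclic loess only Fkbp5 of these 4 passed, and none of the 4 passed without MPTP replicate 1, without MPTP replicate 2 or without control replicate 2. Without control replicate 1 Fkbp5 alone passed, and with either of the non-acupoint arrays left out Fkbp5 and Plin4 did.

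In non-acupoint minus MPTP 0 of the 9 genes were called by limma, and their differences ran in both directions. Where Sgk1 was at -0.54 in non-acupoint minus MPTP, Fkbp5 was at 0.51, Plin4 at 0.53, Mt2 at 0.23 and Zbtb16, a zinc finger gene, at 0.94, each with a limma adjusted p of 1, and Klf9, Ddit4 and Per1 were at 0.06, -0.02 and -0.08. The Fkbp5 and Plin4 values are those that were lower without the array high in adipose markers (0.36 and 0.31), and whether these genes differ from Sgk1 was not tested. At an unadjusted p under 0.05 there were 4 of 9, against 1.7% of all genes, namely Fkbp5, Plin4, Zbtb16 and, in the other direction, the NF-kappaB inhibitor gene Nfkbia at -0.26. This share is no test, since the list was written with earlier results known. Fkbp5 and Plin4 were also picked by likeness to Sgk3, which was high on the non-acupoint arrays. Zbtb16 was at 7.36 and 8.27 on the acupoint arrays, 8.27 and 8.27 on the non-acupoint arrays, 7.35 and 7.32 on the MPTP arrays and 7.43 and 7.35 on the control arrays. It was high on both non-acupoint arrays and on acupoint replicate 2, and the acupoint arrays were again split. In acupoint minus non-acupoint Fkbp5 was at -0.71 (SE 0.15) and did not pass (limma adjusted p = 0.936).

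The genes around the family comprised 59 genes in 6 lists, of which 47 were measured. In MPTP against control 9 rose and 2 fell (limma, adjusted p under 0.05), 23.4% of those measured, against 16.8% of all 16026 genes, 13.7% higher and 3.1% lower. The median difference was 0.072 over the lists and 0.061 over all genes. These 11 calls depended on single arrays: leaving out control replicate 1 gave 7 and control replicate 2 gave 3, leaving out MPTP replicate 1 or MPTP replicate 2 gave 0, leaving out either acupoint array gave 17, and leaving out either non-acupoint array gave 8. Without control replicate 2 the 3 were Mlst8, Slc1a1 and Slc1a3. With the muscle covariate 0 of the 47 were called, and 4 of all genes, in a fit that cannot fully separate muscle signal from the group. Cyclic loess called 2 higher and 4 lower, and centring each array on its median called 16 higher and 1 lower.

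Upstream of the kinases, the steroid genes had 2 of 4 members higher, against 13.7% of all genes. Each list around the family is small, so its count says little beside that share. Nr3c1, the glucocorticoid receptor, rose by 0.40 (SE 0.09, limma adjusted p = 0.0195), with log2 signals of 8.68 and 8.69 on the MPTP arrays and 8.33 and 8.24 on the control arrays. Hsd11b1, whose enzyme regenerates active glucocorticoid inside cells, rose by 0.42 (SE 0.11, limma adjusted p = 0.0347), with 7.51 and 7.48 on the MPTP arrays and 7.10 and 7.05 on the control arrays. The mineralocorticoid receptor gene Nr3c2 was at 0.13 (limma adjusted p = 0.385) and Hsd11b2, whose enzyme inactivates glucocorticoid, at 0.06 (limma adjusted p = 0.815). After a further quantile normalization Nr3c1 was at 0.30 (limma adjusted p = 0.0738), and after cyclic loess it was at 0.27 (limma adjusted p = 0.121) and Hsd11b1 at 0.35 (limma adjusted p = 0.0528).

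Of the 13 kinase, lipid kinase and phosphatase genes measured upstream, 1 rose and 0 fell, against 13.7% and 3.1% of all genes. Mlst8, a subunit shared by both mTOR complexes, rose by 0.41 (SE 0.10, limma adjusted p = 0.0271), with 8.08 and 8.07 on the MPTP arrays and 7.53 and 7.80 on the control arrays. After cyclic loess it was at 0.30 (limma adjusted p = 0.0788). Pik3c3, the kinase that makes phosphatidylinositol 3-phosphate, was at 0.26 (limma adjusted p = 0.0526) and Pdpk1, which encodes PDK1, at 0.23 (limma adjusted p = 0.0897), and neither passed. Rictor, the defining subunit of mTORC2, was at -0.13 (limma adjusted p = 0.323).

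Among partners and turnover genes, 1 of 4 rose, against 13.7% of all genes. Stub1, a chaperone-linked ubiquitin ligase that targets SGK1, rose by 0.28 (SE 0.07, limma adjusted p = 0.0311). It was at 0.17 after a further quantile normalization (limma adjusted p = 0.101) and at 0.13 after cyclic loess (limma adjusted p = 0.212). Tsc22d3 and the scaffold gene Slc9a3r2 were at 0.26 (limma adjusted p = 0.247) and 0.20 (limma adjusted p = 0.14).

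Substrates moved in both directions, 2 higher and 1 lower of 11, against 13.7% and 3.1% of all genes. Ndrg2, an SGK1 substrate of astrocytes, rose by 0.28 (SE 0.06, limma adjusted p = 0.0176). It was at 0.15 after a further quantile normalization (limma adjusted p = 0.127) and at 0.12 after cyclic loess (limma adjusted p = 0.167). The paired kinase genes Gsk3b and Gsk3a were at 0.34 (SE 0.08, limma adjusted p = 0.0195) and -0.29 (SE 0.09, limma adjusted p = 0.0444), so that one rose and the other fell. With arrays centred on their medians Gsk3a was at -0.13 and did not pass (limma adjusted p = 0.408), and after cyclic loess Gsk3b was at 0.18 (limma adjusted p = 0.127). Nedd4l, the ubiquitin ligase whose inhibition by SGK1 keeps sodium channels at the membrane, was at 0.00 (SE 0.10, limma adjusted p = 0.983).

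Of 10 measured channels and transporters, 2 rose, both glutamate transporters, against 13.7% of all genes. Slc1a3, the glial transporter, had 9.17 and 9.09 on the MPTP arrays and 8.58 and 8.09 on the control arrays, a rise of 0.80 (SE 0.14, limma adjusted p = 0.0078). Slc1a1, the neuronal transporter, had 9.33 and 9.36 on the MPTP arrays and 8.84 and 8.82 on the control arrays, a rise of 0.51 (SE 0.08, limma adjusted p = 0.00543). These 2 passed under each of the 3 scalings and without either control array, but did not pass without MPTP replicate 1 or without MPTP replicate 2. Astrocyte markers (6 of 6 measured) had means of 10.57 and 10.51 on the MPTP arrays and 10.07 and 9.98 on the control arrays, and neuronal markers of 11.02 and 10.95 and of 10.50 and 10.46. The part of these markers in the transporter values was not tested. The epithelial sodium channel subunit genes Scnn1b and Scnn1g were below the signal filter, and Scnn1a was at -0.05 (limma adjusted p = 0.868).

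Of 5 measured kinases related to SGK, 1 rose and 1 fell, against 13.7% and 3.1% of all genes. Prkacb, a catalytic subunit of protein kinase A, rose by 0.34 (SE 0.07, limma adjusted p = 0.011). Rps6kb2, an S6 kinase, fell by 0.57 on the log2 scale (SE 0.13, limma adjusted p = 0.0212). After cyclic loess Prkacb was at 0.18 (limma adjusted p = 0.0651). Akt1 and Akt2 were at -0.03 (limma adjusted p = 0.831) and -0.29 (limma adjusted p = 0.115).

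**Figure D5:**
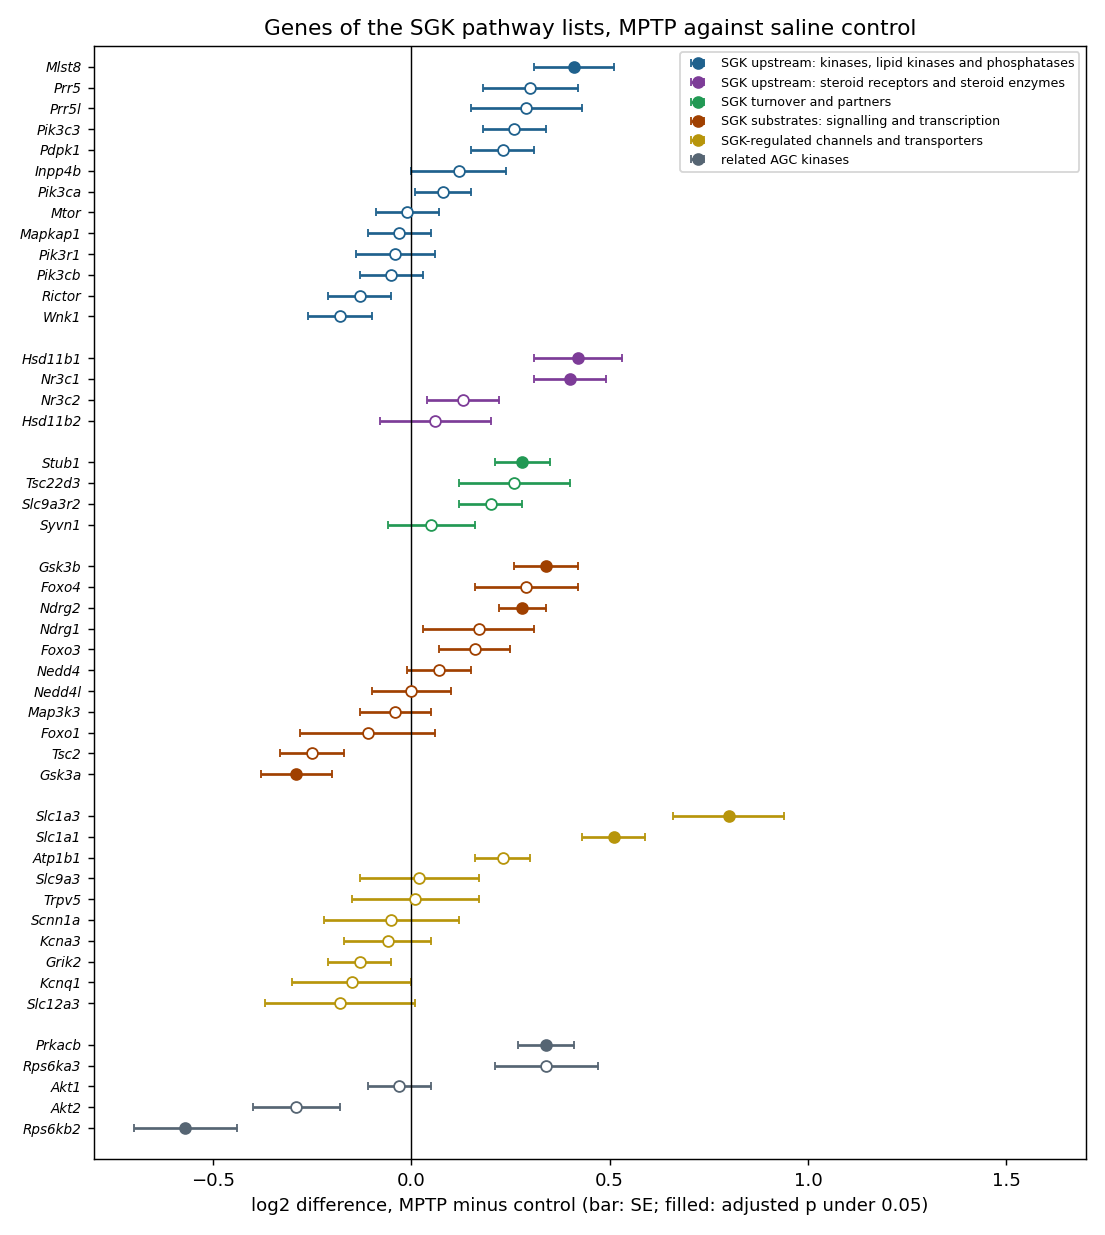
log2 difference, MPTP minus control (horizontal axis, bars SE), for the 47 measured genes around the family, grouped by role and sorted within each group. Filled points passed an adjusted p of 0.05 in limma, 9 to the right of 0 and 2 to the left, with Slc1a3 farthest to the right (0.80) and Rps6kb2 farthest to the left (-0.57).

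In the 3 comparisons among MPTP-treated groups, 0 of the 47 genes were called by limma, and 0 of all genes were (0%). At an unadjusted p under 0.05 there were 0 of 47 in acupoint minus MPTP (1.25% of all genes), 1 in non-acupoint minus MPTP (1.7%) and 1 in acupoint minus non-acupoint (3.77%). These were Hsd11b1 (-0.38, limma adjusted p = 1) and, named after its values were seen, the potassium channel gene Kcna3 (0.29, limma adjusted p = 0.936). Hsd11b1 had 7.22 and 7.01 on the non-acupoint arrays and 7.51 and 7.48 on the MPTP arrays. Without acupoint replicate 2, 1 of the 47 genes was called in acupoint minus non-acupoint, where 622 genes were called in all.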

How the data were processed

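Biotin-labelled cDNA from total RNA was hybridised to whole-transcript arrays, per the labels' protocols. RMA in Affymetrix Expression Console is named in the submitters' processing notes, without versions. The deposited log2 values, 1 for each of 35557 probe sets on an array, are the authors' RMA output, and the log base was read from their range. RMA compresses fold changes of dim probe sets. The platform annotation gave 21789 probe sets 1 symbol. Of these, probe sets with a mean above the 30th percentile (4.30) were kept and the brightest was taken per gene, leaving 16026 genes. Groups came from the labels. limma 3.58.1 in R 4.3.3 fitted 1 mean per group to the 8 arrays (lmFit, eBayes with trend, 4 residual and 5.34 prior degrees of freedom, two-sided, Benjamini-Hochberg within each contrast), and the fit was tested on simulated data.

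The members and lists were chosen with earlier results of these data known. Of each list around the family all genes called were named and, with fewer than 2 called, also the 2 with the smallest p. A few others of known role were added after their values were seen. Likeness took the 5 genes of highest correlation, leaving out predicted genes, olfactory and vomeronasal receptors and small RNAs. Alternatives were 3 scalings, 2 filters, eBayes without a trend, averaged probe sets, the replicate number as a block, only the 2 groups compared, each array left out and, added after seeing the data, a muscle covariate and leaving out each non-acupoint array for the genes most like Sgk3. Peripheral nerve (3 of 5 measured) and endothelial (5 of 6) markers were also read, and an adipose list was added after seeing the data. Batches were not tested, since scan dates were not part of the files used. Figures were made in Python 3.11.15 (matplotlib 3.10.9).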

Additional observations from a re-analysis of the deposited data

How the results depend on the processing

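Each of 16 values (4 differences for each SGK gene and 4 counts of genes around the family) was recomputed under 18 alternatives. Of 288 recomputed values 262 were labelled unchanged. For Sgk2 that meant the same direction and call, and for Sgk1 and Sgk3 a move smaller than the spread between replicates. Counts had to stay at 0 or within a set fold. Many values could not move, so this share is no measure of robustness. Other filters, no trend, averaged probe sets, the block, fitting only 2 groups or leaving out an array of another group cannot change an SGK difference. Sgk1 in MPTP minus control was 0.38 after cyclic loess, 0.66 with arrays centred on their medians, where the median gene moved to 0.219 from 0.061, and 0.30 with the muscle covariate. Centring thus left Sgk1 at 0.44 relative to the median gene. Sgk3 in MPTP minus control was 0.09 with the muscle covariate, and Sgk2 turned to -0.45 in that contrast and to 0.03 in acupoint minus non-acupoint. In MPTP minus control the muscle covariate cannot be fully separated from the group. The count of genes around the family called in MPTP minus control, 11, was 6 after cyclic loess, 17 with centred arrays, 5 without an intensity trend, 18 with only the 2 groups compared and 0 with the muscle covariate. All genes called in that contrast were 2696, and 2090, 4246, 1824, 3698 and 4 under these settings, so the counts of the lists moved with those of all genes.

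With 1 array left out, the count ran from 0 to 17 in MPTP minus control and from 0 to 1 in acupoint minus non-acupoint, and was 0 throughout in the other contrasts. Where 1 array stands for a group it is assumed to vary like the other groups. Sgk1 ran from 0.43 to 0.57 in MPTP minus control, -0.66 to -0.50 in acupoint minus MPTP, -0.63 to -0.45 in non-acupoint minus MPTP and -0.13 to 0.05 in acupoint minus non-acupoint. Sgk3 ran, in the same order of contrasts, from 0.64 to 0.77, -0.81 to -0.12, 0.87 to 1.06 and -1.78 to -1.08. Sgk2 ran from -0.02 to 0.25, -0.06 to 0.30, 0.10 to 0.37 and -0.29 to 0.07, and so turned sign in 3 of the 4. The cause of these moves was not tested.

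With the replicate number as a block, 8 genes around the family were called in MPTP minus control. The SGK differences (Sgk1 0.50, Sgk3 0.71) could not change, since every group holds both replicate numbers. Deviations of same-numbered arrays correlated at -0.33 to 0.17 between groups. Tissue markers differed between the arrays of a group and enter these correlations, so they cannot decide whether the numbers pair the arrays. RMA values hold no signal over background, so how far Sgk2 lies above background is not known.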
